A study of Mus musculus with 2 samples.

Results

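The mouse mandibular epithelium was compared between embryonic day 9.5 (E9.5), when it is a thin sheet over the first pharyngeal arch, and E12.0, when tooth, salivary gland and tongue primordia have started to form. The cells were chosen by their own transcripts: 8682 of 11663 barcodes of the E12.0 library and 1985 of 14293 barcodes of the E9.5 library, 10667 of 25956 in all. A cell was chosen when it had 200 to 5500 genes, at most 10% mitochondrial UMIs and at least 1 UMI of Epcam. Epcam encodes an epithelial adhesion molecule. A chosen cell also had no UMI of Foxa1, Foxa2, Shh and Pax1, used as endodermal genes, or of the mesenchymal genes Twist1 and Prrx1. At E12.0 the study maps Shh to the initiation knot, a tooth signalling centre, and taste bud primordia, and Foxa1 and Foxa2 to the tongue. Cells with a UMI of these genes were left out at that stage too. A UMI is a tag that marks 1 captured transcript molecule.

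Both libraries were made with 10x Genomics 3' chemistry from embryos labelled K14Cre;R26mT/mG, a genotype in which Cre, driven by a keratin 14 promoter, switches a reporter from membrane Tomato to membrane GFP. The E12.0 library held GFP-positive cells that were sorted after the epithelium of 6 pooled littermates had been peeled from the mesenchyme with dispase and dissociated with TrypLE. The E9.5 library held unsorted cells of whole mandibular arches, epithelium and mesenchyme together, from 8 pooled embryos dissociated directly in TrypLE. The E12.0 cells therefore passed a keratin 14 driven sort that the E9.5 cells did not, so the level of Krt14 and of genes that accompany it at E12.0 is not independent of the sort. Stage, sorting, dissociation and library cannot be told apart, and with 1 library per stage no test between stages was possible.

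Surface epithelium of the early embryo is a simple epithelium built on the intermediate filaments of keratins 8 and 18. As it commits to stratification under the transcription factor p63, its basal cells change to keratins 5, 14 and 15 and strengthen their anchorage through desmosomes and hemidesmosomes. In the mandible the same sheet is also divided into an anterior, aboral region, a dental region from which teeth arise, and a posterior, oral region.

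Levels are given as CPM, the UMIs of a gene summed over the chosen cells of a library per 1000000 UMIs of those cells, and differences as the log2 ratio of E12.0 to E9.5. A range after "from" or in parentheses is an exact 95% interval, except for summed joint detections, as said there. The intervals cover counting error only and not the spread between embryos or libraries. A gene is called higher or lower at E12.0 when its ratio was at least 2-fold, and "rose" and "fell" are used of such genes only. This is a rule of size and not a test. Genes with a mean of at least 5 CPM over both stages were examined.

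The chosen cells carried markers of epithelium at both stages. All 16 epithelial markers other than Epcam were above 5 CPM as a mean of the 2 stages, with a summed level of 2613 CPM at E12.0, 1793 CPM at E9.5 and 101 CPM in 6596 E9.5 cells that had Twist1 or Prrx1 UMIs and no Epcam UMI, called mesenchymal below. Not every marker was high at E9.5: Krt5 was at 0.494 CPM there, and Krt8 and Krt18 made up most of the E9.5 sum. Cdh1, which encodes E-cadherin, was measured at 103 CPM (100.3 to 105) at E12.0, 54.2 CPM (51.2 to 57.3) at E9.5 and 1.99 CPM in the mesenchymal cells. Epcam itself, which chose the cells, was at 482 and 518 CPM. Markers of macrophages were near 0, with sums of 3.39 CPM at E12.0 and 1.21 CPM at E9.5 and no UMI of Tyrobp, C1qa, C1qc or Adgre1 at either stage. Neural crest and neuronal markers summed to 22.4 CPM at E12.0, 32.3 CPM at E9.5 and 139 CPM in the mesenchymal cells. Muscle and heart markers summed to 3.01 and 46.3 CPM, and endodermal markers to 13.0 and 51.2 CPM, with 8 of 18 endodermal markers at 0 at E12.0.

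Some RNA of other cells was present in the E9.5 cells. Mesenchymal markers summed to 193 CPM there against 796 CPM in the mesenchymal cells and 309 CPM at E12.0, where the collagen genes Col5a1 (61.3 CPM) and Col5a2 (131 CPM) made up most of the sum. Prrx2, a mesenchymal homeobox gene, was at 0.214 CPM at E12.0, 40.5 CPM in the E9.5 epithelium and 312 CPM in the mesenchymal cells. Endothelial markers summed to 16.2 CPM at E12.0 and 104 CPM at E9.5, and erythroid markers to 1.43 and 1054 CPM. Of 9958 genes examined, 3706 were higher in the mesenchymal cells than in the E9.5 epithelium. The level in the mesenchymal cells is therefore given beside some of the E9.5 values. Where it is not given, such RNA may still be part of the E9.5 value. Its part in the differences was not tested.

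Raising the Epcam condition moved the E9.5 cells more than the E12.0 cells. Of E12.0 cells that met the other conditions, 1724 had no Epcam UMI, 2280 had 1 and 6402 had 2 or more, with Cdh1 at 93.8, 101 and 103 CPM in this order. At E9.5 the numbers were 1308, 310 and 1675, with Cdh1 at 6.89, 35.3 and 56.0 CPM. The E9.5 cells with 1 Epcam UMI were also shallow, with a median of 5377 UMIs against 11913 UMIs in those with 2 or more. The Twist1 and Prrx1 conditions removed 2398 of the 4816 E9.5 cells with an Epcam UMI (49.8%) and 18 of 9536 such cells at E12.0. Those on Foxa1, Foxa2, Shh and Pax1 removed 752 such cells at E9.5 (15.6%) and 838 at E12.0 (8.79%).

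Over the 27514 genes present in both gene lists, the E12.0 cells held 60849898 UMIs and the E9.5 cells 22262873. Cells had medians of 6478 UMIs and 2812.5 genes at E12.0 and 11105 UMIs and 3564 genes at E9.5. The libraries shared 51 barcodes, 3 of them among the chosen cells. A gene without a UMI was assigned 3 counts for a ratio, a level of 0.0493 CPM at E12.0 and 0.135 CPM at E9.5. Xist UMIs, which mark female cells, were found in 38.4% of the E12.0 and 57.8% of the E9.5 cells, and UMIs of Y-linked genes in 48.5% and 28.6%.

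The bases before the transcription start of 6 genes that differed strongly are shown to place the comparison in the genome: Krt5, Col17a1 and Cxcl14, which were much higher at E12.0, and Krt8, Krt18 and Lin28a, which were much lower. The sequences are those of RefSeq in GRCm38.p6, read 5' to 3' on the strand of the gene, and end before the first annotated start in RefSeq and GENCODE. Capitals mark every match to TATAAA, the core of the TATA box, and to GCCNNNGGC, the palindrome bound by AP-2 factors such as Tfap2a and Tfap2b, searched on both strands.
Krt5 (chr15:101712906-101713155, minus strand): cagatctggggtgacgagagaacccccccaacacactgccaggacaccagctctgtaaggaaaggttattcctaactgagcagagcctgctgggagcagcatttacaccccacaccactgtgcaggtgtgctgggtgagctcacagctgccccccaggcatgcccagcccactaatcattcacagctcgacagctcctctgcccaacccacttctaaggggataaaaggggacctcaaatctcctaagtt
Col17a1 (chr19:47692095-47692292, minus strand): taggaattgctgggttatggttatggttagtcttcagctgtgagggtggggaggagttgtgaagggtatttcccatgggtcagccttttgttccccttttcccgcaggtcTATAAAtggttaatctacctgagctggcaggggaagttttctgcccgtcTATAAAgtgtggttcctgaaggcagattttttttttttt
Cxcl14 (chr13:56296552-56296801, minus strand): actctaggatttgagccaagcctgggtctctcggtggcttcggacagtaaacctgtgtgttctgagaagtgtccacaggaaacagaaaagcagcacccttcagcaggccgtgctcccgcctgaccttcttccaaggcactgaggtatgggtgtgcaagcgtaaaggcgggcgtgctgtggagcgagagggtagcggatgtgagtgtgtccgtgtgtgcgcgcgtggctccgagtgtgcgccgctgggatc
Krt8 (chr15:102004483-102004592, minus strand): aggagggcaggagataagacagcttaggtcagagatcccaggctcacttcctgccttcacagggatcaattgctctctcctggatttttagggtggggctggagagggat
Krt18 (chr15:102027966-102028179, plus strand): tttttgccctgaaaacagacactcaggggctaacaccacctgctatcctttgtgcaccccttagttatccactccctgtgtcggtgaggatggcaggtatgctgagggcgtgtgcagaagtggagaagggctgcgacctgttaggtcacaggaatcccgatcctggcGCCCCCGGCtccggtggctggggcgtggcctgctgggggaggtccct
Lin28a (chr4:134018842-134019066, minus strand): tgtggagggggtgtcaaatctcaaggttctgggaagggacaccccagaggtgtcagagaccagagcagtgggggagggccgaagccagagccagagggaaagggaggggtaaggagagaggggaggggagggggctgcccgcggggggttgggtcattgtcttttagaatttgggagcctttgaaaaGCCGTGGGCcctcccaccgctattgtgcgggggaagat

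Col17a1 held 2 matches to TATAAA, while Krt18 and Lin28a each held 1 match to GCCNNNGGC. No match to either motif was found in the other windows, and none of the 6 held AACNGGTT, the motif of the Grainyhead-like factors. These letters are common: of 32817 mouse promoter windows of 250 bases, 12.4% held TATAAA, 13.7% GCCNNNGGC and 1.78% AACNGGTT. The matches therefore describe the windows only. Krt5, Krt8 and Krt18 lie close together on chromosome 15, within the type II keratin cluster and its border with Krt18, and moved in opposite directions between the stages.

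Of 9958 genes examined, 1888 (19.0%) were at least 2-fold higher at E12.0 and 658 (6.61%) at least 2-fold lower. The count of each list below is to be read beside these shares. The median log2 ratio of all genes examined was 0.21. After centring on this median 1403 genes were higher and 1019 lower, 57.9% of calls higher in place of 74.2%. Differences of 16-fold or more were found for 128 higher and 72 lower genes.

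**Figure D1:**
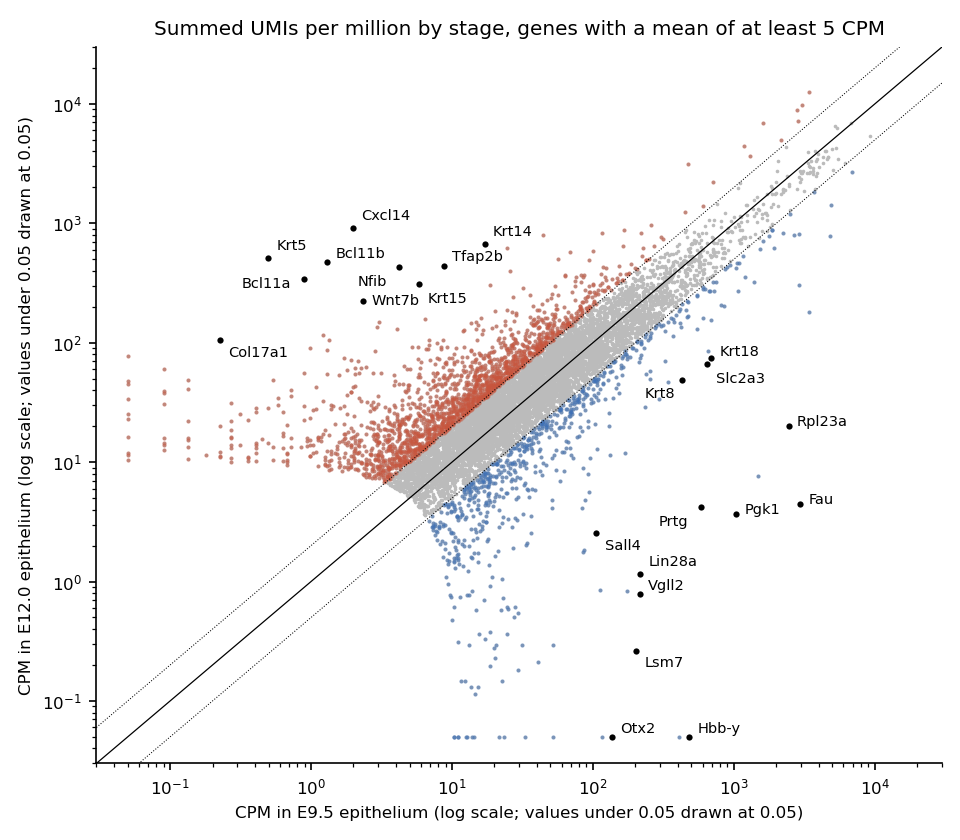
Each point is 1 of 9958 genes, with its CPM in the E9.5 epithelium on the horizontal and in the E12.0 epithelium on the vertical axis, both on log scales with values under 0.05 drawn at 0.05. The dotted lines mark a 2-fold difference, red points are higher and blue points lower at E12.0, and labelled genes are black. Krt5, Cxcl14, Bcl11a, Bcl11b and Col17a1 stand far above the diagonal and Otx2, Vgll2, Lin28a and Prtg far below it, as do Fau, Pgk1, Lsm7 and Rpl23a, which every cell uses.

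Krt5, a keratin of basal cells, was at 509 CPM (503 to 514) at E12.0 and 0.494 CPM (0.247 to 0.884) at E9.5, from 30944 and 11 UMIs. This was the largest ratio among the genes that were higher at E12.0 with a mean of at least 50 CPM, with a log2 ratio of 10.01 (9.17 to 11.01). Col17a1, which encodes the hemidesmosomal collagen XVII, followed with 105 CPM (102 to 107) against 0.225 CPM (0.0729 to 0.524) and a log2 ratio of 8.87 (7.64 to 10.49). The chemokine gene Cxcl14 was at 913 CPM (905 to 921) and 1.98 CPM (1.44 to 2.65), which is 8.85 (8.43 to 9.31) as a log2 ratio. The zinc finger factors Bcl11a and Bcl11b were at 340 and 475 CPM at E12.0 against 0.898 and 1.30 CPM at E9.5. None of these 5 genes reached 1 CPM in the mesenchymal cells.

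The other genes of this group were Nfib, a nuclear factor I gene, at 431 and 4.22 CPM, the ligand gene Wnt7b at 223 and 2.34 CPM and the membrane protein gene Emp1 at 106 and 1.35 CPM. Krt15 and Krt14 had log2 ratios of 5.72 (5.47 to 5.98) and 5.31 (5.16 to 5.46). Runx1, a Runt domain factor of hair and tooth epithelium, was at 135 and 2.92 CPM, and Nckap5 at 148 and 3.05 CPM. The homeobox gene Dlx2 was at 131 CPM at E12.0 and 4.09 CPM at E9.5 and the AP-2 gene Tfap2b at 443 and 8.76 CPM. For these last 2 genes the E9.5 mesenchymal cells were higher than the E9.5 epithelium, with 52.5 and 61.1 CPM, and their log2 ratios of 5.00 and 5.66 were 2.81 and 4.17 when cells were chosen by Epcam alone. Srp54c, at 116 and 1.21 CPM, has near-identical copies, so its counts are uncertain.

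At the other end, Otx2, a homeobox gene of the head, had 3044 UMIs at E9.5 (137 CPM, from 132 to 142) and none at E12.0. The whole E12.0 library held 1 UMI, and the level in the chosen cells was 2773-fold lower at a floor of 3 UMIs. Vgll2, which encodes a TEAD cofactor, fell from 214 CPM (208 to 221) to 0.789 CPM (0.582 to 1.05), a log2 ratio of -8.09 (-8.53 to -7.68). Both were concentrated in the epithelium at E9.5, since the mesenchymal cells had 6.41 CPM of Otx2 and 6.36 CPM of Vgll2. Lin28a, an RNA-binding protein that holds back let-7 maturation, fell from 216 to 1.15 CPM, Prtg, a surface protein of early embryonic cells, from 580 to 4.21 CPM, and Igdcc3, of the same immunoglobulin family, from 112 to 0.855 CPM. Sall4, a zinc finger gene of pluripotent and early embryonic cells, fell from 106 to 2.53 CPM. The last 4 were also present in the E9.5 mesenchymal cells, at 116, 379, 63.4 and 95.2 CPM, so their E9.5 level was not particular to the epithelium.

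The remaining genes of this end belong to other patterns. The embryonic globin genes Hbb-y, Hba-x and Hbb-bh1 were at 482, 411 and 117 CPM at E9.5 and at 793, 705 and 199 CPM in the mesenchymal cells, and all 8 globin genes are listed at 0 in the whole E12.0 library of 78911671 UMIs. No fold is given for them. Lsm7, Fau, Pgk1, Timm8a1, Rps2 and Rpl23a, genes that all cells use, fell by 6.92 to 9.59 on the log2 scale. Yet they were about as high in the E9.5 mesenchymal cells as in the E9.5 epithelium, or higher. Fau was at 4.45 CPM at E12.0, 2961 CPM in the E9.5 epithelium and 3118 CPM in the mesenchymal cells. Pgk1 and Timm8a1 were at 1033 and 173 CPM in the E9.5 epithelium and at 1749 and 287 CPM in the mesenchymal cells. Of 2213 examined genes with a UMI in at least 50% of the chosen E9.5 cells and of the mesenchymal cells, 11 were at least 16-fold lower at E12.0. Besides genes that all cells use, these 11 included Hbb-y and the early embryonic genes Lin28a, Prtg and Sall4. This count starts from genes found at E9.5, so it cannot show genes that were missed there. A gap in the other direction was seen for Hgs, with 3483 UMIs over all E12.0 barcodes and 15 over all E9.5 barcodes. Genes higher at E12.0 are therefore not free of this doubt. The 2 matrices name different versions of the counting program, and the part of counting in these values was not tested.

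The keratins changed over from the simple to the basal type. Of 21 keratins, 10 were examined, 5 of which were higher and 4 lower at E12.0. Krt14 was at 673 CPM (667 to 680) at E12.0 and 17.0 CPM (15.4 to 18.8) at E9.5, and Krt15 at 308 CPM (304 to 312) and 5.84 CPM (4.88 to 6.93). Krt17, of ectodermal appendages, was at 25.1 and 1.80 CPM, and Krt1, of suprabasal cells, at 13.8 and 1.80 CPM.

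In contrast, Krt8 was at 49.1 CPM (47.4 to 50.9) at E12.0 and 428 CPM (419 to 436) at E9.5, and its partner Krt18 at 74.5 CPM (72.3 to 76.7) and 693 CPM (682 to 704). Their log2 ratios were -3.12 and -3.22, so that the pair fell in the same measure. Krt19 fell from 80.2 to 16.5 CPM, and Krt7 from 70.1 to 27.8 CPM. The fall of Krt7 was less than 2-fold, a log2 ratio of -0.78, when cells were chosen by Epcam alone. Krt10, at 26.1 and 13.9 CPM, did not reach 2-fold.

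Shares of cells gave the same order as the sums. After each cell was thinned to 5000 UMIs, which left 6908 E12.0 and 1741 E9.5 cells, a Krt5 UMI was found in 69.7% of E12.0 cells (68.6 to 70.8) and 0.172% of E9.5 cells (0.0355 to 0.503), beside 0.0181% of the mesenchymal cells. Krt14 was found in 85.7% and 8.33% of cells, with a background of 0.326%. Krt18 was found in 27.1% and 91.8%, with a background of 13.0%, and Krt8 in 15.8% (14.9 to 16.6) and 80.8% (78.9 to 82.6), with a background of 10.3%. Without thinning the shares were 73.1% and 0.554% (0.277 to 0.989) for Krt5, with a background of 0.0303% (0.00367 to 0.109), and 20.3% and 92.1% for Krt8. Both Krt14 and Krt5 were thus found in a larger share of the E9.5 epithelium than of the mesenchymal cells, Krt5 in 11 cells of 1985.

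**Figure D2:**
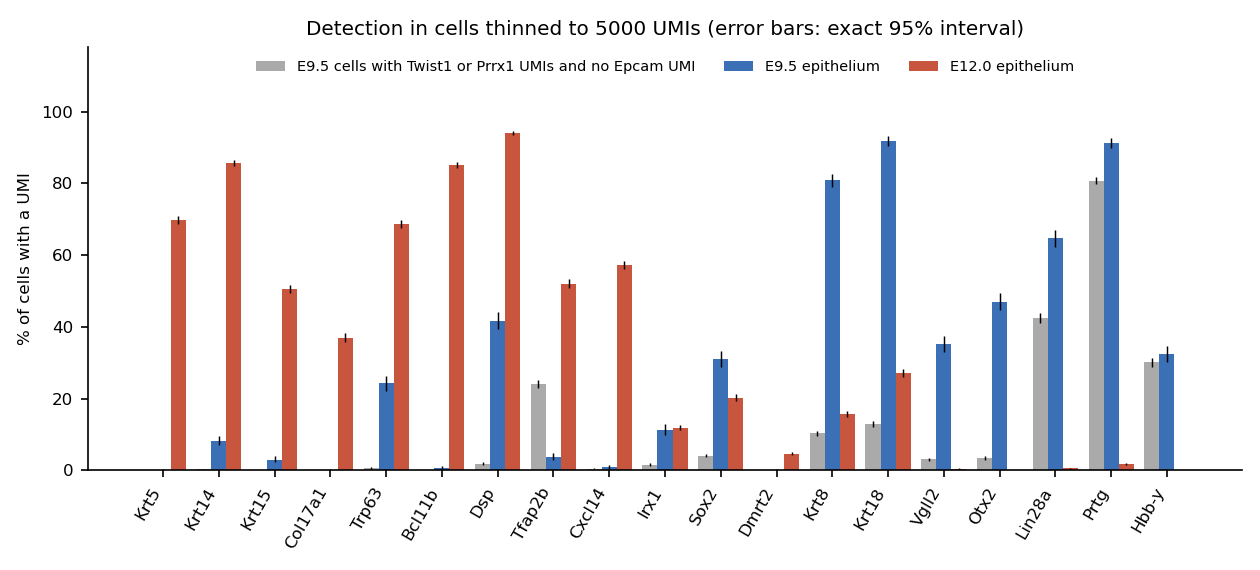
The bars give the percentage of cells with a UMI of each gene after thinning to 5000 UMIs, for the E12.0 epithelium (red, 6908 cells), the E9.5 epithelium (blue, 1741 cells) and E9.5 mesenchymal cells (grey, 5529 cells), with exact 95% intervals. Krt5, Col17a1 and Bcl11b were found in few E9.5 cells, Krt8, Krt18, Vgll2 and Otx2 in many E9.5 and few E12.0 cells, and Lin28a, Prtg and Hbb-y also in many mesenchymal cells.

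Within the E12.0 epithelium, cells that still had Krt8 UMIs had Krt5 UMIs less often than their separate shares predict. Krt5 and Krt8 were found together in 370 thinned cells where 759.5 were expected from the product of the shares, a ratio of 0.487 (0.440 to 0.538). The ratio was 0.813 (0.759 to 0.870) for Krt14 and Krt8 and 0.984 (0.906 to 1.07) for Krt15 and Krt8, while that for Krt8 and Krt18 was above 1, with an interval from 1.47 to 1.75. At E9.5 the ratio for Krt14 and Krt8 was 1.06 (0.885 to 1.25), an interval that includes 1. Krt14 and Krt15 UMIs met in 11 E9.5 cells where 4.33 were expected, a ratio of 2.54 (1.27 to 4.53) that was 1.77 (1.20 to 2.50) without thinning and 1.75 (0.476 to 4.47) at 3000 UMIs. These keratin pairs were chosen after their levels were seen.

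Genes of the junctions that hold stratified epithelia together were higher at E12.0. Of 12 desmosome genes examined, 11 were higher and 1 lower, with a median log2 ratio of 2.23, against 19.0% and 6.61% of all genes and a median of 0.21. Dsp, which encodes the desmosomal linker desmoplakin, rose from 117 CPM (112 to 121) to 827 CPM (820 to 834) and was found in 41.7% and 94.0% of thinned cells. Dsc3, a desmosomal cadherin of basal cells, had no UMI at E9.5 and 77.3 CPM (75.1 to 79.6) at E12.0, 573.9-fold higher at a floor of 3 UMIs. Perp, a p63 target in desmosomes, rose from 27.3 to 241 CPM, and the plakoglobin gene Jup from 14.6 to 68.4 CPM.

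The member that fell was Pkp2, the plakophilin of simple epithelia and heart, from 44.5 CPM (41.8 to 47.4) to 9.83 CPM (9.06 to 10.6). The plakophilins of stratified epithelia, Pkp1 and Pkp3, moved the other way, from 0.0898 to 12.7 CPM and from 7.73 to 36.1 CPM. The E9.5 value of Pkp1 rests on 2 UMIs. Dsc2, Pkp4 and Ppl, with log2 ratios of 1.03, 1.07 and 1.08, missed 2-fold when ratios were centred.

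Anchorage to the basement membrane followed the same direction, with 17 of 36 genes higher and 2 lower. Of the hemidesmosome, besides Col17a1, the integrin gene Itgb4 rose from 0.898 CPM (0.549 to 1.39) to 56.2 CPM (54.3 to 58.1), and its partner Itga6 from 95.9 to 264 CPM. Lama3, of laminin-332, was at 0.135 CPM from 3 UMIs at E9.5 and 40.8 CPM at E12.0, a ratio of 303 with a log2 interval from 6.69 to 10.52. Lamb3, of the same laminin, rose from 0.719 to 15.8 CPM. Dst and Plec, which link hemidesmosomes to keratin, rose from 69.2 to 571 CPM and from 37.3 to 156 CPM.

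In contrast, the basement membrane linker gene Nid2 fell from 29.5 CPM (27.3 to 31.9) to 0.542 CPM (0.373 to 0.762), with 18.0 CPM in the mesenchymal cells. Col4a6, a collagen IV chain, fell from 28.8 to 13.9 CPM, a difference that was under 2-fold with 3 alternative settings. The main collagen IV chains Col4a1 and Col4a2 and the laminin chain Lama5 were between these limits, with log2 ratios of 0.71, 0.55 and 0.60.

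**Figure D3:**
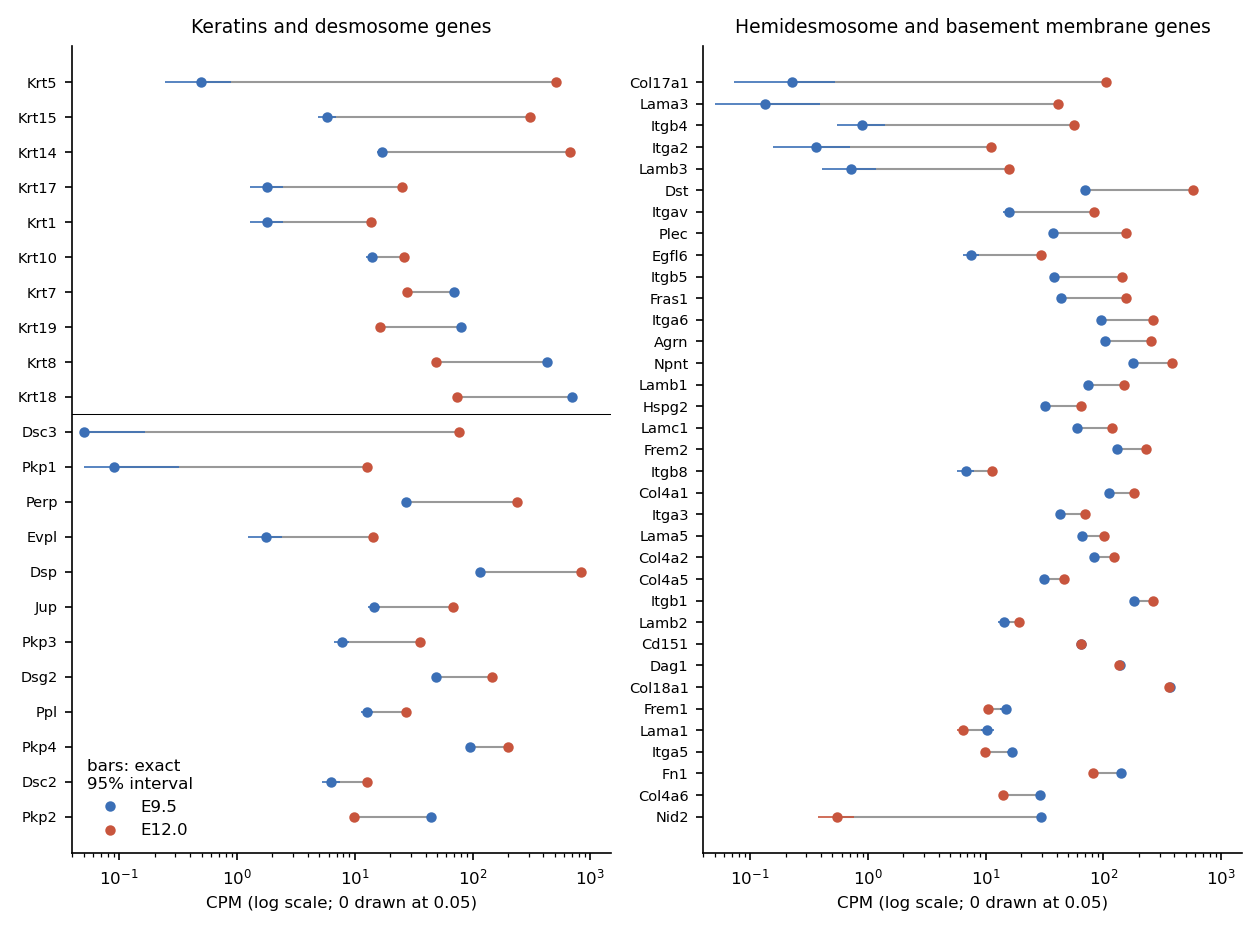
The dots give the CPM of keratin and desmosome genes (left, separated by a line) and hemidesmosome and basement membrane genes (right) at E9.5 (blue) and E12.0 (red) on a log scale, with exact 95% intervals and values of 0 drawn at 0.05. The red dot lies to the right of the blue one for Krt5, Krt15, Krt14, all desmosome genes but Pkp2, and the hemidesmosome genes Col17a1, Itgb4 and Dst, and to the left for Krt7, Krt19, Krt8, Krt18 and Nid2.

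Adherens and tight junction genes gave a mixed picture. Of 11 cadherin, catenin and nectin genes, 5 were higher and 1 was lower. Nectin4 rose from 3.91 to 53.5 CPM and Cdh3, P-cadherin, from 36.5 to 80.7 CPM, while Nectin2 fell from 161 to 53.7 CPM and Cdh1 did not reach 2-fold. Of 17 tight junction and epithelial splicing genes, 3 (17.6%) were higher and 4 (23.5%) lower, against 19.0% and 6.61% of all genes, with a median log2 ratio of -0.51. Cldn1, the claudin of the skin barrier, rose from 0.404 to 13.1 CPM, and Cldn7, Cldn6 and Cldn3, claudins of simple epithelia, fell from 153 to 38.3, from 137 to 58.4 and from 26.7 to 2.86 CPM. Cldn6 missed 2-fold when cells were chosen by Epcam alone.

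Transcription factors of stratified epithelia were higher at E12.0 in 13 of 18 genes and lower in none, with a median log2 ratio of 2.89. Trp63, the p63 gene that drives the basal program, rose from 56.5 CPM (53.4 to 59.7) to 252 CPM (248 to 256) and was found in 24.2% (22.2 to 26.3) of thinned E9.5 cells and 68.7% (67.6 to 69.8) of thinned E12.0 cells, beside 0.615% of mesenchymal cells. It was therefore present in the E9.5 epithelium, where Krt5 was at 0.494 CPM. Its relative Trp73 rose from 1 UMI (0.0449 CPM) to 25.5 CPM.

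The AP-2 gene Tfap2c rose from 6.02 to 69.0 CPM and the grainyhead-like gene Grhl3 from 0.270 to 10.1 CPM. Klf4 and Klf5, Kruppel-like factors of epithelial differentiation, rose from 15.4 to 60.4 CPM and from 12.1 to 92.5 CPM. Grhl2, at 76.7 and 52.6 CPM, Ovol2, at 15.2 and 8.89 CPM, and Gata3, at 31.2 CPM at both stages, stayed within 2-fold.

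Patterning factors of surface and placodal ectoderm moved in both directions, with 16 of 41 higher and 7 lower. The distal-less genes were among those that rose: Dlx1 from 1.71 CPM (1.21 to 2.34) to 74.7 CPM (72.5 to 76.9), Dlx2 as above and Dlx3 from 8.67 to 106 CPM, while Dlx5, of which the mesenchymal cells had 85.5 CPM, fell from 16.9 to 5.75 CPM. Dlx1 and Dlx2 are also genes of the arch mesenchyme, with 44.1 and 52.5 CPM in the E9.5 mesenchymal cells, and the log2 ratio of Dlx1, 5.45, was 2.30 when cells were chosen by Epcam alone. Otx1 and Barx2, a Bar-like homeobox gene, rose from 2.47 to 62.4 and from 5.70 to 92.9 CPM.

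Against this, genes of the pharyngeal and placodal ectoderm fell with Otx2 and Vgll2. The forkhead gene Foxi2 had 21.4 CPM (19.5 to 23.4) at E9.5 and no UMI at E12.0, about 435-fold lower at a floor of 3 UMIs. The homeobox gene Nkx2-5 fell from 33.2 CPM (30.9 to 35.7) to a single UMI. Eya1, a cofactor gene of placodal ectoderm, fell from 26.5 to 6.08 CPM. The summed levels of Otx1 and Otx2 therefore moved in opposite directions between the stages.

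Several factors that mark oral ectoderm stayed within 2-fold. Pitx1 was at 302 and 191 CPM at E12.0 and E9.5, Isl1 at 107 and 79.8 CPM, Tlx1 at 53.6 and 59.9 CPM, Nkx2-3 at 106 and 176 CPM and Sox2 at 70.0 CPM (67.9 to 72.1) and 99.0 CPM (94.9 to 103). Of these genes the E9.5 mesenchymal cells had less, 4.90 CPM of Pitx1, 17.8 CPM of Isl1, 19.4 CPM of Tlx1 and 8.09 CPM of Sox2.

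The markers that the study chose in its E12.0 cells were followed back to E9.5. Since they were chosen on the E12.0 cells, a higher level at E12.0 is not independent evidence of their direction. Of 20 markers of the anterior region, 19 were higher at E12.0 and none lower, with a median log2 ratio of 2.18. Rxfp1, a relaxin receptor gene, was at 48.0 CPM and 0.0449 CPM from 1 UMI, a ratio whose log2 interval ran from 7.58 to 15.37. The gap junction genes Gjb6 and Gjb2 were at 39.8 and 0.719 CPM and at 74.1 and 7.86 CPM. Gata3 was at the same level at both stages, and the smallest differences of the 19 were those of Sema3a, at 196 and 88.7 CPM, Slc4a4, at 49.7 and 20.4 CPM, and Robo2, at 85.9 and 32.6 CPM. Sema3a and Robo2 missed 2-fold with at most 5% mitochondrial UMIs.

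Of 15 dental markers, 7 were higher and 1 was lower. Besides Dsc3, they included Slitrk6, at 16.1 and 0.0898 CPM, Fst, at 55.6 and 2.20 CPM, Timp3, at 105 and 6.87 CPM, and the neurotrophin receptor gene Ntrk2, at 22.0 and 5.57 CPM. The Iroquois factors of this list, Irx1, at 35.5 and 27.9 CPM, and Irx2, at 24.4 and 12.6 CPM, stayed within 2-fold. The marker that was lower was Sp5, which the study maps to the initiation knot, whose cells with Shh UMIs were not chosen.

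Among 12 posterior markers, 6 were higher and 1 was lower, with a log2 ratio of -3.41. Dmrt2, a doublesex-related factor, was at 13.8 CPM (12.9 to 14.8) and 0.0898 CPM from 2 UMIs, and Col14a1 at 14.6 and 0.494 CPM. Sox2, Sox21, Foxc1 and Nkx2-3 were within 2-fold. Of 15 periderm and suprabasal markers, 9 were higher and none was lower, among them Sfn, the 14-3-3 sigma gene, at 165 and 35.9 CPM.

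In thinned cells Irx1 was found in 12.0% of E12.0 cells and 11.3% of E9.5 cells and Sox2 in 20.3% and 31.0%. The corresponding shares of mesenchymal cells were 1.61% and 4.16%. The anterior markers were rarer at E9.5: Tfap2b was found in 52.1% of E12.0 cells and 3.73% of E9.5 cells, below its share of 24.0% in mesenchymal cells, and Cxcl14 in 57.3% and 0.919%, with a background of 0.434%. Since mesenchymal cells express Tfap2b themselves, its E9.5 share in the epithelium could not be told from free RNA in these counts. The study itself reports Tfap2b-positive aboral cells in the E9.5 epithelium. Dmrt2 was found in 4.68% of E12.0 cells and 0.0574% of E9.5 cells, 1 cell.

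Joint detection of markers of different regions was set against the number that their separate shares predict. The study chose these markers for different regions of its E12.0 cells. A ratio under 1 at E12.0 is therefore not independent evidence that the regions are apart. Over the 4 pairs of Tfap2b or Cxcl14 with Sox2 or Dmrt2, joint detections at E12.0 numbered 543 where 1889 were expected, a ratio of 0.287 (0.264 to 0.313). At E9.5 there were 27 where 25.1 were expected, a ratio of 1.07 (0.708 to 1.56). The joint detections themselves were a smaller share of cells at E9.5, for Tfap2b and Sox2 1.15% against 2.88% at E12.0 and for Cxcl14 and Sox2 0.402% against 3.88%. Most E9.5 detections rest on Tfap2b, whose E9.5 share could not be told from free RNA, so no difference between the stages is read from these ratios. For the anterior markers with Irx1, a dental marker, the ratios were 0.336 (0.300 to 0.376) at E12.0, 304 detections, and 1.10 (0.526 to 2.02) at E9.5, where all 10 detections were of Tfap2b. For Irx1 with the posterior markers they were 1.37 (1.21 to 1.54) at E12.0 and 0.757 (0.554 to 1.01) at E9.5, and without thinning the E9.5 ratio was 1.04 (0.903 to 1.18).

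The pairs behind these sums differed. The joint share of Irx1 and Sox2 was 1.62 (1.44 to 1.82) times the predicted one at E12.0 and 0.758 (0.557 to 1.01) times at E9.5, or 1.04 times without thinning, and Irx1 and Dmrt2 were found together in 10 cells at E12.0 where 38.6 were expected.

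**Figure D4:**
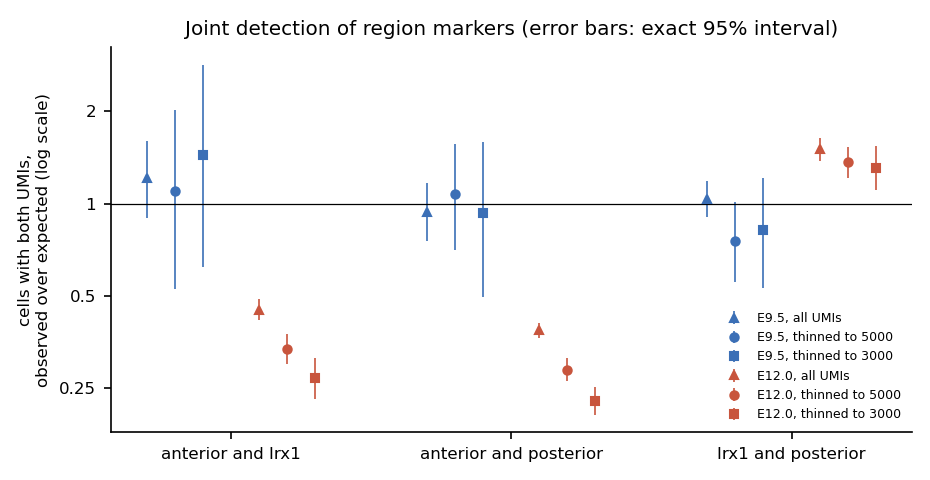
The points give joint detections of region markers, summed over pairs and divided by the number expected from the separate shares, on a log scale. E9.5 is blue and E12.0 red. The 95% intervals treat the summed detections as independent and may be too narrow. Triangles use all UMIs, circles cells thinned to 5000 UMIs and squares cells thinned to 3000. The anterior and posterior pair lies at 0.287 at E12.0 and 1.07 at E9.5, and the anterior markers with Irx1 lie at 0.336 and 1.10. The study chose the markers for different regions of its E12.0 cells, so low E12.0 ratios are not independent evidence.

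Vgll2, found in 35.3% of thinned E9.5 cells (33.0 to 37.6) and 0.492% of E12.0 cells, overlapped with the oral marker Sox2. It was found with Sox2 1.29 (1.15 to 1.45) times as often as the shares predict, 1.34 times without thinning and 1.48 times at 3000 UMIs. With Krt14 the ratio changed with depth, 0.684 (0.478 to 0.948) at 5000 UMIs, 0.647 (0.384 to 1.02) at 3000 and 1.03 (0.875 to 1.21) without thinning. Otx2, found in 47.0% of E9.5 cells, went with Vgll2 at 0.874 (0.776 to 0.979) times the predicted share in thinned cells and at 1.08 (1.01 to 1.16) times without thinning, so the direction of this ratio depends on depth. These pairs were chosen after their levels were seen. All such ratios come from the cells of 1 library per stage.

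WNT ligands and their feedback genes were higher at E12.0 in 18 of 28 genes and lower in 3, with a median log2 ratio of 1.63. Among the ligands, Wnt4 rose from 163 CPM (158 to 169) to 643 CPM (637 to 649), Wnt6 from 102 to 267 CPM, Wnt3 from 9.21 to 92.7 CPM, Wnt9b from 23.4 to 75.3 CPM and Wnt10a from 0.404 to 14.4 CPM. Wnt7a had no UMI at E9.5 and 12.0 CPM at E12.0, 89.4-fold higher at a floor of 3 UMIs. Inhibitors and negative regulators of the pathway rose as well: Kremen2 from 0.988 to 89.9 CPM, Sostdc1 from 62.9 to 363 CPM, Rnf43 from 4.40 to 33.0 CPM and Znrf3 from 14.4 to 79.8 CPM. Of the R-spondin receptors, Lgr6 rose from 0.225 to 20.1 CPM and Lgr4 from 25.5 to 89.9 CPM.

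The nuclear factors Lef1 and Tcf7l2 rose from 53.3 to 149 CPM and from 48.3 to 144 CPM, and the target gene Axin2 from 17.6 to 40.1 CPM. Against this direction, the secreted inhibitor gene Dkk1 fell from 12.4 CPM (10.9 to 13.9) to 0.148 CPM (0.0676 to 0.281), the factor Tcf7 from 26.4 to 6.94 CPM and the target Sp5 from 11.1 to 4.55 CPM. Sp5 was the least stable of these, with a log2 ratio of -0.48 when Shh was left out of the choice of cells and -0.50 when cells were chosen by Epcam alone. Sp5 is a marker of the initiation knot in the study, and cells with Shh UMIs were not chosen. Its fall is therefore read for the chosen cells only.

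In the BMP and TGF-beta pathway, 12 of 25 genes were higher and 2 lower. The secreted antagonists Fst and Nog rose from 2.20 to 55.6 CPM and from 1.98 to 42.7 CPM, and the inhibitory Smad7 from 43.8 to 211 CPM. The receptors Bmpr2 and Acvr2a rose from 27.5 to 152 CPM and from 21.2 to 106 CPM, and the targets Msx1 and Msx2 from 36.4 to 147 CPM and from 18.1 to 76.8 CPM. The abundant genes Id1 and Id3 of the same list stayed within 2-fold, with log2 ratios of 0.32 and 0.53. Id2 had a log2 ratio of 1.13, which missed 2-fold when ratios were centred and when cells were chosen by Epcam alone. Of the ligands, Bmp4 was at 8.28 CPM at E12.0 and 14.8 CPM at E9.5 and Bmp7 at 65.4 and 51.1 CPM, both within 2-fold, and Bmp5 fell from 15.3 to 4.04 CPM. Bmp4 was past 2-fold lower with some alternatives, with a log2 ratio of -1.04 when ratios were centred. It was at -0.08 when cells were chosen by Epcam alone. The type II receptor gene Acvr2b was at 85.0 CPM at E12.0 and 170 CPM at E9.5, at the edge of the rule.

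FGF genes split by ligand. Fgf9 rose from 1.57 CPM (1.10 to 2.19) to 53.8 CPM (52.0 to 55.7), while Fgf8, an early ligand of the arch ectoderm, fell from 131 CPM (126 to 136) to 25.9 CPM (24.6 to 27.2) and was found in 29.6% of thinned E9.5 and 10.5% of thinned E12.0 cells. Fgf10 fell from 244 UMIs to a single UMI. The receptors Fgfr2 and Fgfr3 rose from 53.7 to 300 CPM and from 3.28 to 16.6 CPM. The feedback genes Spry1, at 35.5 and 32.5 CPM, Spry2, at 33.1 and 22.7 CPM, and Dusp6, at 36.2 and 63.9 CPM, stayed within 2-fold. Spred1 and Spred2 of the same list rose, with log2 ratios of 1.13 and 1.32, and Spred1 missed 2-fold when ratios were centred. In all, 5 of 19 genes (26.3%) were higher and 3 (15.8%) lower, beside 19.0% and 6.61% of all genes.

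Of 21 Hedgehog and Notch genes other than Shh, which chose the cells, 8 were higher and 2 lower. The Notch ligand gene Jag2 rose from 4.76 to 60.3 CPM and the receptor gene Notch1 from 9.48 to 74.0 CPM, and Notch3 and the target Hey2 fell from 32.4 to 12.4 CPM and from 12.1 to 2.22 CPM. The Hedgehog target Gli1 rose from 3.95 to 29.0 CPM.

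Of 7 genes examined of a list of ectodysplasin signalling, which acts in teeth, hair and glands, and NF-kB, 6 were higher, 3 of them general NF-kB genes, 1 of which, with a log2 ratio of 1.05, missed 2-fold when ratios were centred. The ectodysplasin adaptor gene Edaradd rose from 0.539 to 48.4 CPM and the ligand gene Eda from 3.05 to 14.8 CPM. Tnfrsf19, which encodes a different receptor, rose from 12.2 to 128 CPM. The ectodysplasin receptor gene Edar itself was found in 1.52% of thinned E12.0 cells and 0% of thinned E9.5 cells.

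Of 10 retinoic acid genes, 4 were higher and 3 lower. The receptors rose, Rxra from 4.85 to 40.2 CPM and Rarg from 13.7 to 85.1 CPM, and genes of binding proteins fell, Crabp1 from 237 to 54.5 CPM and Crabp2 from 145 to 41.7 CPM. The mesenchymal cells had 1342 CPM of Crabp1 and 85.6 CPM of Crabp2.

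Guidance, neurotrophin and chemokine genes were higher in 21 of 37 cases and lower in 5. The neurotrophin genes Bdnf and Ntf3 rose from 2.78 to 21.4 and from 10.7 to 33.5 CPM, the growth factor gene Pdgfc from 16.2 to 161 CPM and the receptor gene Epha4 from 35.5 to 250 CPM. Sema3d, a semaphorin, rose from 37.4 to 202 CPM. In contrast, the chemokine gene Cxcl12 fell from 86.3 CPM (82.5 to 90.2) to 1.82 CPM, opposite to Cxcl14. Edn1, the endothelin that patterns the arch mesenchyme from the epithelium, fell from 84.7 CPM (80.9 to 88.6) to 1.77 CPM (1.46 to 2.14). The mesenchymal cells had 13.4 CPM of Cxcl12 and 9.48 CPM of Edn1, both below the E9.5 epithelium.

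**Figure D5:**
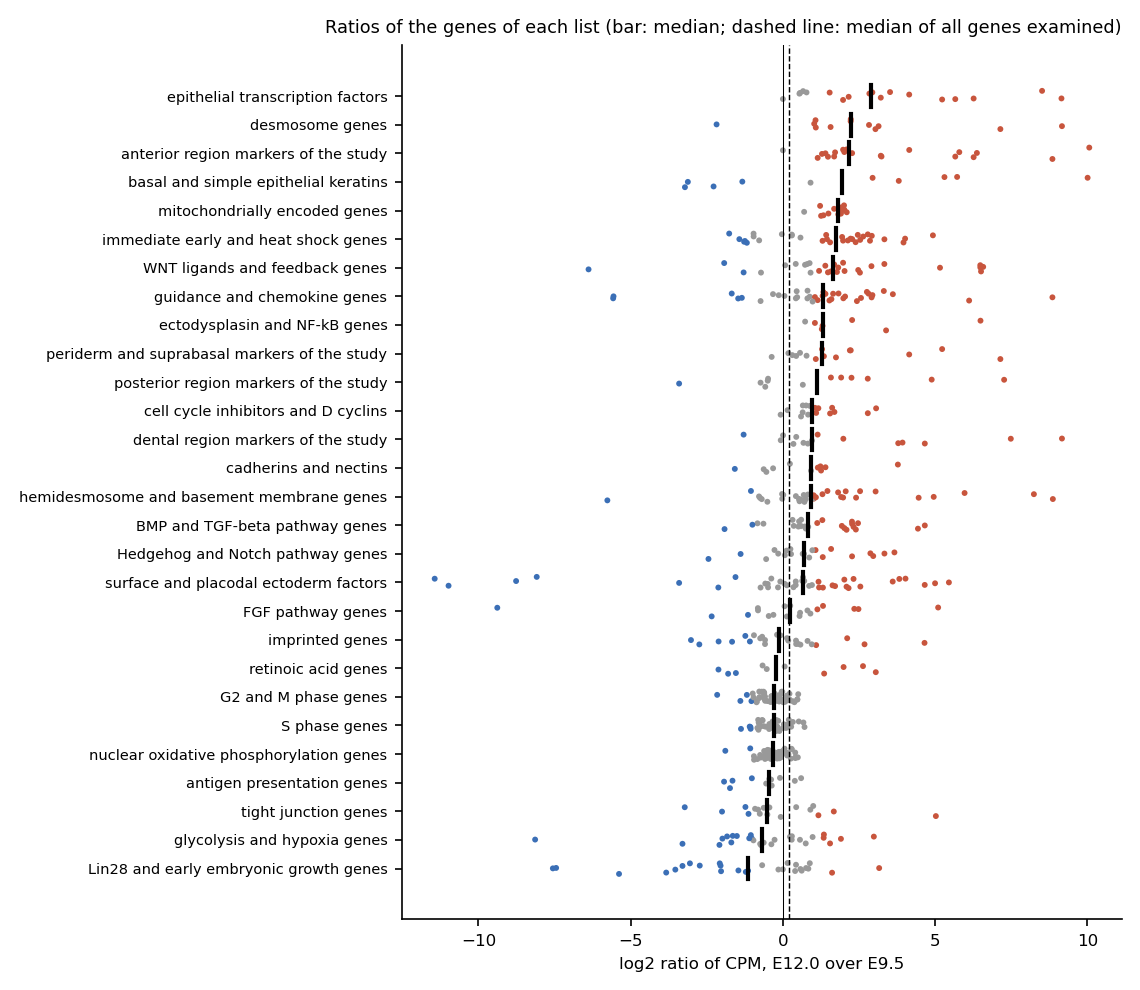
Each point is an examined gene of a list, placed by its log2 ratio of CPM at E12.0 over E9.5, red when at least 2-fold higher, blue when at least 2-fold lower and grey between; genes with no UMI at a stage are placed with 3 counts. Black bars are list medians and the dashed line the median of all genes, 0.21. The medians run from 2.89 for epithelial transcription factors to -1.14 for Lin28 and early embryonic growth genes.

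Genes of the early embryonic growth program, of which Lin28a is a regulator, were lower in 14 of 27 cases and higher in 2, with a median log2 ratio of -1.14. Lin28b fell from 106 to 12.8 CPM, Trim71, an RNA-binding let-7 target, from 170 CPM (164 to 175) to 11.9 CPM (11.1 to 12.8), the nuclear receptor gene Nr6a1 from 92.1 to 7.95 CPM and Sall1 from 51.7 to 0.296 CPM. A Lin28a UMI was found in 64.7% of thinned E9.5 cells (62.4 to 66.9), 42.5% of mesenchymal cells and 0.565% of thinned E12.0 cells (0.402 to 0.771). Trim71, at 168 CPM, Lin28b, at 127 CPM, and Nr6a1, at 83.1 CPM, were in the mesenchymal cells near their level in the epithelium, while Sall1 was lower there, at 14.9 CPM.

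Not all let-7 targets of this list followed. Hmga2 was at 951 CPM at E12.0 and 620 CPM at E9.5, and Igf2bp1 at 496 CPM at both stages, and both stayed within 2-fold. The DNA methyltransferases went apart, as Dnmt3a rose from 32.1 CPM (29.8 to 34.6) to 287 CPM (283 to 292) and Dnmt3b fell from 67.2 to 24.4 CPM.

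Of 26 imprinted genes, 4 (15.4%) were higher and 6 (23.1%) lower, beside 19.0% and 6.61% of all genes, with a median log2 ratio of -0.12. Dlk1, a growth regulator, fell from 234 to 28.9 CPM, Phlda2 from 72.4 to 10.8 CPM and Peg3 from 1089 to 463 CPM, while Plagl1 rose from 10.4 to 66.8 CPM. H19, at 2746 and 2039 CPM, and Meg3, at 486 and 939 CPM, stayed within 2-fold. Igf2 was at 622 and 24.7 CPM, but it overlaps a gene that only the E9.5 gene list holds, so its ratio is uncertain.

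Cell cycle genes moved little. None of 43 S phase and 54 G2 and M phase genes was higher and 4 of each were lower, with medians of -0.30 in both lists. Cdc20, an activator of the anaphase-promoting complex, fell from 128 to 48.5 CPM. Mki67 was found in 59.7% of thinned E12.0 and 69.8% of thinned E9.5 cells. Its summed level went the other way within 2-fold, with a log2 ratio of 0.50. With at most 5% mitochondrial UMIs, Cdc20, Aurka, Birc5, Mcm5 and Gmnn missed 2-fold.

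Of 16 inhibitors of the cycle and D cyclins, 8 were higher and none was lower, among them Gadd45g, from 10.7 to 89.6 CPM, Btg2, from 7.59 to 52.4 CPM, and Cdkn1c, the p57 gene, from 198 to 421 CPM. Cdkn1a, the p21 gene, was at 36.5 and 38.4 CPM. Cdkn1c missed 2-fold with 4 of the alternative settings.

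Genes of a list of glucose uptake, glycolysis and hypoxia were lower in 11 of 28 cases (39.3%) and higher in 5 (17.9%), beside 6.61% and 19.0% of all genes. The higher genes include Car12 and Ddit4, which are not glycolysis genes. The 11 include Pgk1, whose log2 ratio of -8.14 was named above among genes that all cells use. The part of counting in that value was not tested. The glucose transporter gene Slc2a3 fell from 649 CPM (639 to 660) to 66.0 CPM (64.0 to 68.1) and Slc2a1 from 367 to 114 CPM. Both were higher in the E9.5 epithelium than in the mesenchymal cells, which had 34.2 and 82.7 CPM. The enzyme genes Ldha, Aldoa and Eno1 fell from 1940.5 to 619, from 814 to 205 and from 548 to 129 CPM, and had 3273, 1168 and 670 CPM in the mesenchymal cells. Their E9.5 level was thus not particular to the epithelium, and the part of counting in their fall was not tested. Ldhb, the other lactate dehydrogenase subunit, rose from 39.3 to 147 CPM. Nuclear genes of oxidative phosphorylation had a median log2 ratio of -0.33, with 2 of 68 lower and none higher.

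Mitochondrially encoded genes were higher in 12 of 13 cases, with a summed level of 55122 CPM at E12.0 and 18236 CPM at E9.5. The median share of mitochondrial UMIs per cell was 5.49% and 1.76%. mt-Cytb and mt-Nd3 missed 2-fold when cells were limited to 5% mitochondrial UMIs, a setting that kept 2499 E12.0 and 1936 E9.5 cells.

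Immediate early genes, which respond quickly to handling of cells, and heat shock genes also differed. Of 32, 20 were higher and 5 lower, with a median log2 ratio of 1.75. Fos rose from 18.7 CPM (17.0 to 20.6) to 302 CPM (298 to 307) and was found in 58.0% of thinned E12.0 cells against 9.08% of E9.5 and 5.55% of mesenchymal cells. Jun rose from 63.7 to 370 CPM and Hspb1 from 2.83 to 86.0 CPM, while the chaperone genes Hsp90aa1, Hspe1 and Hspd1 fell from 4877 to 1435, from 2233 to 828 and from 1772 to 779 CPM. The E12.0 cells had been through dispase, a longer dissociation and sorting, which the E9.5 cells had not. How much of these differences belongs to the stage was not tested.

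A mixed list held antigen presentation genes and others such as Ifitm3, Cd9 and Cd81. Of its 11 genes examined, 4 were lower and none was higher. These were H2-K1, at 4.80 CPM at E12.0 and 18.3 CPM at E9.5, Psmb10, Ifitm1 and Ly6e. The last 2 are not antigen presentation genes. B2m, which is one, stayed within 2-fold with a log2 ratio of 0.60. Of 6 sex-linked genes, 4, all Y-linked, were higher, such as Ddx3y, from 16.1 to 59.2 CPM, and Xist was at 560 and 336 CPM, in embryos whose sexes were not balanced between the libraries.

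Over all lists, 654 of 898 distinct genes were examined, 214 of which were higher and 101 lower. The corresponding shares of all genes were 19.0% and 6.61%. Among the 81 examined genes whose exons overlap a gene that only 1 gene list holds, 28 were higher and 2 lower, and their counts may be split between the overlapping genes.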

How the data were processed

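The deposited files of both 10x Genomics libraries hold UMI counts, with a row for each gene and a column for each barcode. The authors made these counts with Cell Ranger against the mouse genome mm10 (GRCm38), kept only the barcodes taken to be cells and did not normalize them. The submitters' processing notes name Cell Ranger 2.0.0, whereas the file headers name 3.1.0 (E12.0) and 6.1.2 (E9.5). The release of the gene annotation is not given in the sources used here. The gene lists hold 27998 and 31053 genes and share 27514 Ensembl identifiers, and genes of 1 list held 0.207% and 0.125% of the UMIs of the chosen cells. Each stage is 1 library, so no test or p-value was computed.

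UMIs were summed over the chosen cells and divided by their total over the shared genes, per 1000000 (CPM). The mesenchymal cells beside them were filtered the same way and had at least 1 UMI of Twist1 or Prrx1 and none of Epcam. Intervals are exact Poisson intervals for levels, exact intervals of the ratio of counts for differences and Clopper-Pearson intervals for shares. Summed joint detections have Poisson intervals, although 1 cell can count in more than 1 pair. Shares and joint detection were taken in cells thinned to 5000 UMIs with a seed of 1, which left out 1774 E12.0, 244 E9.5 and 1067 mesenchymal cells. The work was done in Python 3.11.15 with scanpy 1.11.5 (Scrublet), pandas 2.3.3, scipy 1.17.1, numpy 2.4.6 and matplotlib 3.10.9. The steps were tested on simulated data over 27514 genes. Of 200 changed genes, 200 were recovered with the right sign, and 95.3% of intervals held the value set. The simulated counts had the Poisson error that the intervals assume, so this covers the calculation only. It does not cover the spread between cells, embryos or libraries, or differences in counting. Scrublet called 661 (5.82%) and 331 (2.60%) of the filtered cells doublets, 511 and 10 of them among the chosen cells, and these were kept.

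The cells, the gene lists and the comparisons were chosen with earlier results of these data known. Named genes are the 15 with the largest and the 15 with the smallest ratio among genes with a mean of at least 50 CPM, and for each list its members with the largest and smallest ratios and the highest levels, members that went against most of their list, and those needed for an account of a family. Rule genes are given as a description. Of the list genes, 3 were not found in the counts. Gene positions are those of GENCODE on GRCm38. Promoter sequences of 6 of 6 genes looked for came from RefSeq (GRCm38.p6). Alternatives changed the conditions on cells, the scaling, the filter on low genes, the fold and the depth. Lifting the upper gene limit, leaving out overlapping genes and the keratin, Vgll2 and Otx2 pairs were chosen after seeing the data. Some list members are counted in their lists but not reported here by name, and for this reason the dental pairs use Irx1 alone.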

Additional observations from a re-analysis of the deposited data

How the results depend on the processing

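None of the 222 named genes that were at least 2-fold apart changed direction under the alternatives that gave it a value, and 208 to 222 of them stayed at least 2-fold apart. With the Epcam condition alone 32 of their ratios moved by over 1.5 times, with 5 CPM added 100 did, and under the other alternatives at most 31. The 1888 genes higher and 658 lower became 1403 and 1019 when ratios were centred on the median, 2641 and 1222 with a mean of at least 1 CPM, 1023 and 344 with at least 20 CPM, 3286 and 1569 at 1.5-fold and 573 and 221 at 4-fold. With 5 CPM added to both stages they were 1288 and 466. Over the other conditions on cells, scaling and genes they ranged from 1806 to 2041 and from 642 to 747. List members at least 2-fold apart, 315 in all, numbered 175 at 4-fold. At E12.0 the joint detection of anterior markers with Irx1 was 0.451 without thinning and 0.270 with cells thinned to 3000 UMIs, and that of anterior and posterior markers 0.386 and 0.228. At E9.5 that of Irx1 with posterior markers was 1.04 without thinning. The other counts stayed within 1.5 times the reported value, and the other summed E9.5 joint detections of region markers within their intervals. Of 48 examined genes that were at least 4 times higher in E9.5 cells without Epcam UMIs than in the chosen cells, 30 were higher and 13 lower at E12.0. No paired analysis was possible because each stage has 1 library. The precision of a level depends on its UMIs, and the spread between embryos was not measured.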
